A study of Mus musculus with 8 samples.

Results

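The genes that copy DNA, and those that make its building blocks, were measured in the hearts of mouse fetuses with and without *Dio3*, the gene of the deiodinase that inactivates thyroid hormones. The group holds 38 genes of the 26590 gene symbols in the expression table, and all 38 were expressed above the filter on low values. They were given by name from their textbook roles, with earlier results of these data known, so their shares below are a description. In *Dio3*-/- hearts the mean of 35 of the 38 was higher than in *Dio3*+/+ hearts, where 63.3% of all genes tested had a higher mean. Among genes with a mean above 5 RPKM (defined below) over all hearts, 67.7% had a higher mean, as did 34 of the 37 members there. The median ratio of the 38 was 1.072 and that of all genes 1.029. The differences were small. No member differed by 1.5-fold, where 578 of the 14657 genes tested differed by more than that. After adjustment over the whole table, 2 of the 38 passed the test, both higher in *Dio3*-/- hearts. These were *Rrm2*, the regulated subunit of ribonucleotide reductase, at 1.237-fold, and *E2f1*, a transcription factor of the entry into S phase, at 1.176-fold. Of all genes tested, 2.29% passed, 1.91% as higher and 0.382% as lower. Neither *Rrm2* nor *E2f1* passed by Welch's test, after subtraction of the median log2 ratio, or with each coefficient of variation raised by 0.005.

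DNA replication starts at origins, where Cdc6 and Cdt1 help to load the ring-shaped Mcm2 to Mcm7 helicase, which is later activated together with Cdc45 and the GINS complex. Primase and DNA polymerase alpha lay down the primers, the clamp Pcna is placed on DNA by the Rfc clamp loader and holds polymerases delta and epsilon on the template, and Fen1 and Lig1 finish the lagging strand. The deoxynucleotides come from ribonucleotide reductase, thymidylate synthase and thymidine kinase, and most of these genes are transcribed in S phase under E2F control, so their RNA is commonly read as a sign of cycling cells. In the fetal heart, cardiomyocytes still divide and express this machinery.

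The hearts came from 4 *Dio3*+/+ (wild-type) and 4 *Dio3*-/- (knockout) fetuses on the C57BL/6J background, each heart from an individual mouse, and the labels name no treatment. The *Dio3*-/- allele was made on another strain and backcrossed, and *Dio3* is inactive in the whole fetus and not the heart alone, so an effect of the gene in the heart and one of the rest of the fetus cannot be told apart. The sample titles give E13.5 for every heart, whereas in the age field *Dio3*-/- hearts 3 and 4 are entered as E18.5, and the study's text is not uniform on the age either. E13.5 is used here. The deposited table gives, for each transcript, the mean level of each genotype, read here as RPKM (read counts divided by transcript length and by the mapped reads of the library), and the coefficient of variation (CV, the SD divided by the mean) of its 4 hearts. The levels of single hearts and the read depth of each library are therefore unknown here, and no member can be shown heart by heart or retested without a given heart. The CV of the members was 0.03 to 0.13 in *Dio3*-/- hearts (median 0.065) and 0.02 to 0.13 in *Dio3*+/+ hearts (median 0.07). The medians over all genes tested were 0.06 and 0.09. The part of age in the results was not tested.

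Differences are given as log2 fold changes of *Dio3*-/- against *Dio3*+/+ on the log2(RPKM + 0.5) scale, with the SE and the P value of limma's moderated test computed from the means and CVs, with Benjamini-Hochberg adjustment across the 32703 transcripts whose mean exceeded 1 RPKM in either genotype. A gene was called when its adjusted P value was under 0.05. By its most abundant transcript, 2.29% of the 14657 genes tested were called, 1.91% higher and 0.382% lower in *Dio3*-/- hearts. The members' share was 5.26%, which is 2 genes. When only transcripts with a mean above 5 RPKM over all hearts were tested, 3.76% of all genes were called, and 3 of 37 members. At an unadjusted P value under 0.05, 14 of the 38 members (36.8%) passed, all 14 higher, where 15.2% of all genes passed as higher and 4.46% as lower. The means of 10 members (26.3%) lay farther apart than the sum of both SDs, against 15.5% of all genes. Of the 336 genes called, 83.3% were higher in *Dio3*-/- hearts. With the median log2 ratio of 0.038 subtracted from every log2 fold change (centring), 180 genes were called, 71.7% of them higher. On that centred scale 32 of the 38 members remained above 0, against 50.6% of all genes, and neither *Rrm2* (adjusted P = 0.062, limma) nor *E2f1* (adjusted P = 0.0938) passed. The 14 members with an unadjusted P value under 0.05 became 4. The share of all genes under that threshold was not counted after centring, so these 4 have no like share beside them.

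**Figure D1:**
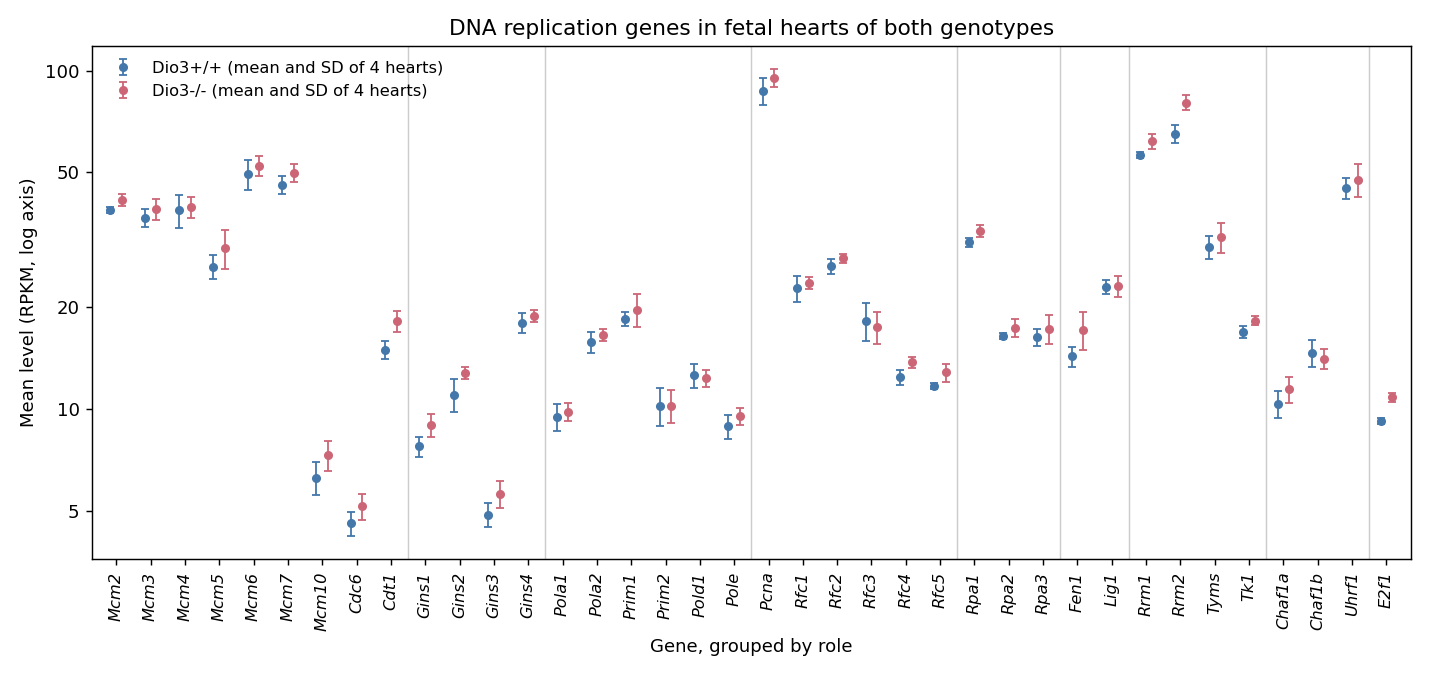
Mean level of the 38 genes in RPKM (log axis) in *Dio3*+/+ and *Dio3*-/- fetal hearts, genes grouped by role from helicase loading to E2F, with bars for the SD of 4 hearts. In 35 of 38 pairs the *Dio3*-/- point sits above the *Dio3*+/+ point, and in most pairs the bars overlap.

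The members were well expressed in these hearts. In *Dio3*+/+ hearts, 31 of the 38 had a mean above 10 RPKM, and each member exceeded between 61.4% and 97.3% of the genes in the table. RPKM is scaled to transcript length, so that levels can be set beside each other. The order of the levels was led by *Pcna* (87.0 RPKM, CV 0.09), *Rrm2* (65.0, CV 0.06), *Rrm1* (56.4, CV 0.02) and *Mcm6* (49.4, CV 0.10). *Cdc6* (4.60, CV 0.08), *Gins3* (4.88, CV 0.08) and *Mcm10* (6.28, CV 0.11) stood at its lower end. The 4 highest lay farther from each other than the sum of their SDs, whereas *Cdc6* and *Gins3* did not. The summed level of the 38 genes was 906 RPKM in wild-type and 983 RPKM in knockout hearts, a ratio of 1.085. The median ratio of all genes tested was 1.029. In bulk tissue, more cells in S phase and more RNA per cell cannot be told apart in such a sum. RPKM is also a share of the mapped reads, so a change in the share of other RNAs cannot be told apart from these either.

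The 6 subunits of the replicative helicase were expressed at similar levels, 26.4 to 49.4 RPKM in *Dio3*+/+ hearts, and all 6 means were higher in *Dio3*-/- hearts, with log2 fold changes of 0.03 to 0.17 and a median of 0.091. None was called. *Mcm2*, the subunit with the narrowest spread, averaged 38.7 RPKM (CV 0.02) in wild-type and 41.4 RPKM (CV 0.04) in knockout hearts, a log2 fold change of 0.10 (SE 0.04, adjusted P = 0.265). *Mcm5* had the largest difference of the 6, from 26.4 (CV 0.08) to 29.8 RPKM (CV 0.13), with a log2 fold change of 0.17 (SE 0.09, adjusted P = 0.357). *Mcm7* went from 45.9 to 49.9 RPKM (0.12, SE 0.06). *Mcm3* stood at 0.08, *Mcm6* at 0.08 and *Mcm4* at 0.03, and the 95% intervals of all subunits but *Mcm2* included values below 0. Summed over the 6 subunits, the level was 236 RPKM in wild-type and 252 RPKM in knockout hearts (ratio 1.069), and the ring as a group stood a little above the shift of the median gene (0.039).

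Of the factors that load and start this helicase, none was called. *Cdt1*, which brings the helicase to licensed origins and is destroyed once S phase begins, averaged 15.0 RPKM (CV 0.06) in wild-type and 18.2 RPKM (CV 0.07) in knockout hearts. Its log2 fold change of 0.27 (SE 0.06, 95% interval 0.13 to 0.41) was the second-highest of the 38 and fell short of the threshold (adjusted P = 0.0607, limma). Its adjusted P value was 0.0493 when rows with a mean under 5 RPKM, or rows with a CV above 0.5, were left out of the table, and 0.0836 to 0.166 without the trend, with raised CVs, without the filter, after centring and by Welch's test. *Cdc6*, the ATPase that loads the helicase with the origin recognition complex, went from 4.60 (CV 0.08) to 5.17 RPKM (CV 0.09), a log2 fold change of 0.15 (SE 0.08, adjusted P = 0.343). *Mcm10*, which helps the helicase to start unwinding, went from 6.28 to 7.32 RPKM (0.21, SE 0.09, adjusted P = 0.263), and its 5 transcripts were all higher, by 0.13 to 0.30.

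The GINS complex, the helicase partner formed by Gins1 to Gins4, had the highest median of the multigene roles, 0.192. *Gins1* (7.76 against 8.97 RPKM, adjusted P = 0.175), *Gins2* (11.03 against 12.8 RPKM, adjusted P = 0.185) and *Gins3* (4.88 against 5.62 RPKM, adjusted P = 0.244) had log2 fold changes of 0.20, 0.20 and 0.19, each with an unadjusted limma P value under 0.05 and none called. *Gins4*, the most abundant subunit, stood at 18.0 (CV 0.07) against 18.9 RPKM (CV 0.04), a log2 fold change of 0.06 (SE 0.06). In *Dio3*-/- hearts its CV of 0.04 and the other subunits' CVs of 0.04 to 0.09 describe hearts that were close to each other.

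The enzymes that synthesize DNA had the lowest median of the multigene roles, 0.058. The 4 genes of polymerase alpha and primase, *Pola1*, *Pola2*, *Prim1* and *Prim2*, had log2 fold changes of 0.00 to 0.09, with adjusted P values of 0.603 to 0.998. *Prim2*, the large primase subunit, was equal in both genotypes, at 10.2 RPKM (CV 0.13 and 0.11), and its 95% interval of -0.23 to 0.23 leaves room for a difference of that size in either direction. *Pold1*, the catalytic subunit of the lagging-strand polymerase delta, was 12.6 RPKM in wild-type and 12.3 RPKM in knockout hearts (-0.03, SE 0.07). *Pole*, that of the leading-strand polymerase epsilon, was 8.89 and 9.54 RPKM (0.10, SE 0.07). No gene of this role reached an unadjusted P value under 0.05.

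*Pcna*, the sliding clamp, was the most abundant member and averaged 87.0 RPKM (CV 0.09) in wild-type and 95.2 RPKM (CV 0.06) in knockout hearts, a log2 fold change of 0.13 (SE 0.07, 95% interval -0.03 to 0.29, adjusted P = 0.376). Of its loader, 4 of 5 subunits had a higher mean. *Rfc4* (12.4 against 13.7 RPKM, log2 fold change 0.14, adjusted P = 0.192) and *Rfc5* (11.7 against 12.8 RPKM, 0.12, adjusted P = 0.244) had an unadjusted P value under 0.05. *Rfc1* and *Rfc2* stood at 0.05 and 0.07. *Rfc3* was lower in *Dio3*-/- hearts in all 4 of its transcripts, from 18.2 (CV 0.13) to 17.5 RPKM (CV 0.11) in the most abundant (-0.06, SE 0.10, adjusted P = 0.812), within its spread.

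The trimeric protein RPA coats the unwound strand. Its large subunit *Rpa1* went from 31.1 (CV 0.03) to 33.7 RPKM (CV 0.04), a log2 fold change of 0.11 (SE 0.05, adjusted P = 0.214), and *Rpa2* and *Rpa3* each stood at 0.08. *Fen1*, the nuclease that trims Okazaki fragments, averaged 14.3 (CV 0.07) and 17.1 RPKM (CV 0.13), a log2 fold change of 0.25 (SE 0.09, adjusted P = 0.171) that was alike in its 3 transcripts (0.23 to 0.25). *Lig1*, the ligase that seals them, averaged 23.0 and 23.1 RPKM (0.01, SE 0.06, adjusted P = 0.965), and its sign was below 0 in another transcript (-0.02) and on the centred scale (-0.03). No test compared the members with each other.

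The genes of nucleotide supply included the member with the largest difference. *Rrm2*, the short-lived small subunit whose supply limits ribonucleotide reductase in S phase, averaged 65.0 RPKM (CV 0.06) in wild-type and 80.4 RPKM (CV 0.05) in knockout hearts. The SDs of the genotypes did not touch, and the log2 fold change was 0.30 (SE 0.06, 95% interval 0.18 to 0.43, adjusted P = 0.0318, limma). *Rrm1*, the large subunit, went from 56.4 (CV 0.02) to 61.8 RPKM (CV 0.05), also past the sum of its SDs, with a log2 fold change of 0.13 (SE 0.05, adjusted P = 0.164). *Tk1*, the S phase thymidine kinase, went from 16.9 (CV 0.04) to 18.2 RPKM (CV 0.03; 0.11, SE 0.05, adjusted P = 0.26). *Tyms*, which makes thymidylate from deoxyuridylate, went from 30.1 to 32.2 RPKM (0.09, SE 0.08, adjusted P = 0.59). The summed level of the 4 was 168 RPKM in wild-type and 193 RPKM in knockout hearts, a ratio of 1.144, the highest of the multigene roles, and *Rrm2* made up most of that difference.

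Of the genes that rebuild chromatin behind the fork, *Chaf1a*, the large subunit of the histone chaperone CAF-1, averaged 10.4 and 11.5 RPKM (0.14, SE 0.08), whereas *Chaf1b*, the middle subunit, averaged 14.7 and 14.1 RPKM (-0.05, SE 0.07). *Uhrf1*, which recruits the maintenance DNA methyltransferase to hemimethylated sites, averaged 44.9 and 47.6 RPKM (0.09, SE 0.08). None of the 3 passed at an unadjusted P value under 0.05.

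*E2f1*, the regulator among the members, averaged 9.21 RPKM in wild-type and 10.8 RPKM in knockout hearts, with CVs of 0.02 and 0.03, among the narrowest of the group. The log2 fold change was 0.22 (SE 0.05, 95% interval 0.12 to 0.33, adjusted P = 0.0437, limma), and both of its transcripts were called, at 0.22 and 0.27. Both calls among the members lie close to the threshold. With each CV raised by 0.005, the most that rounding to 2 decimals can hide, the adjusted P value was 0.0734 for *E2f1* and 0.0505 for *Rrm2*, and by Welch's test from the same summaries, with the same adjustment, 0.0697 and 0.12.

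**Figure D2:**
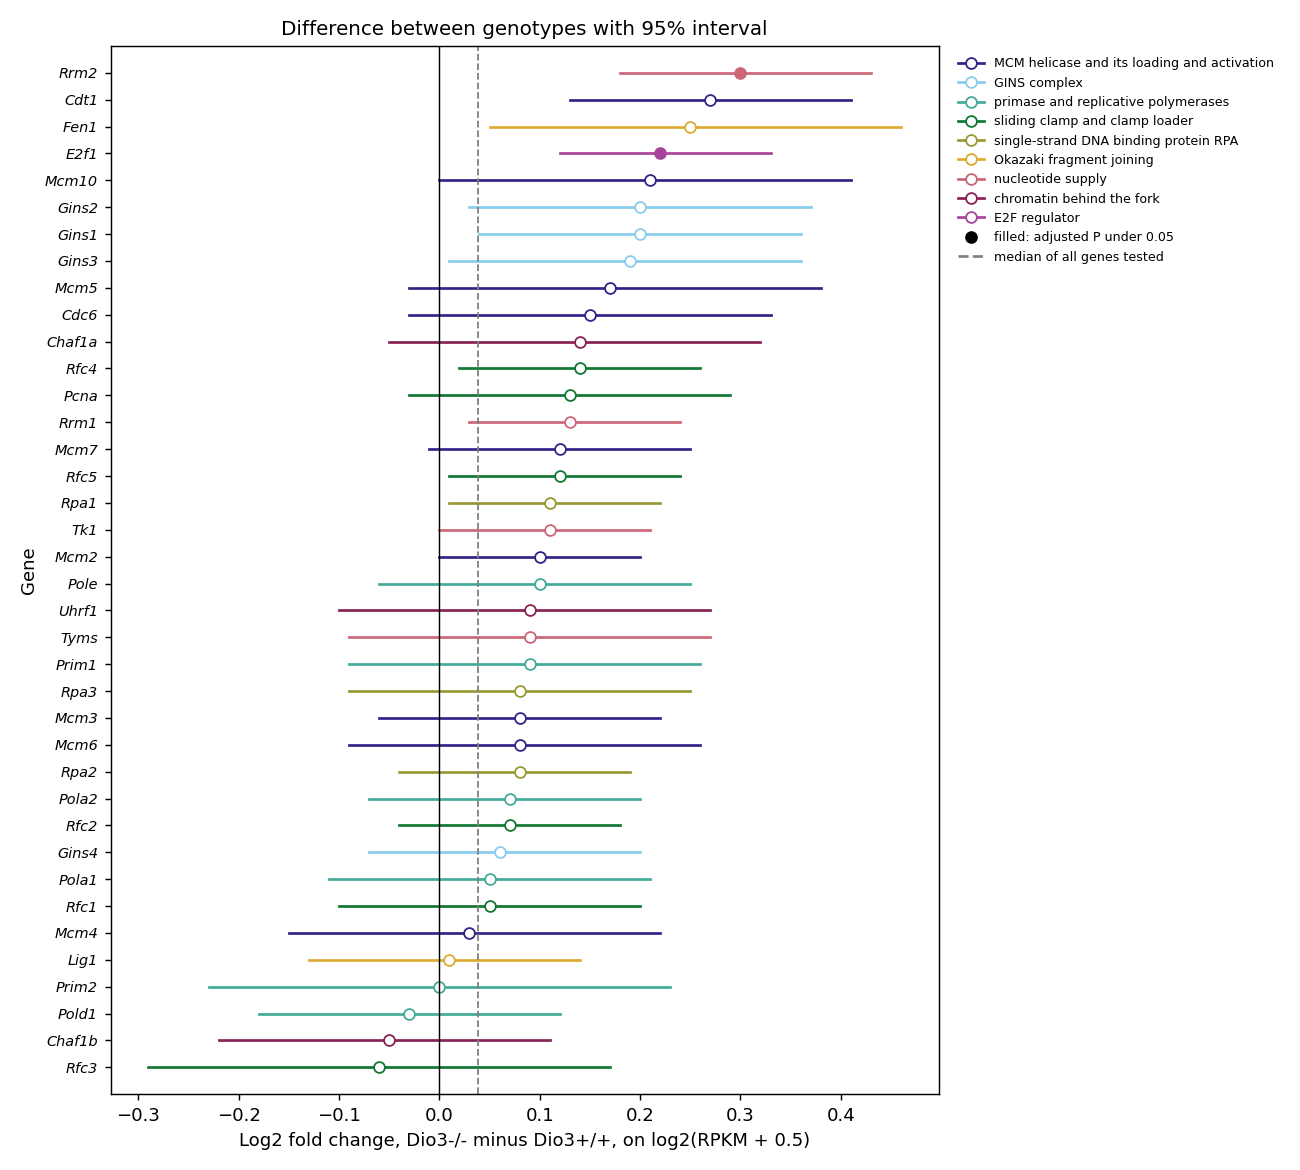
Log2 fold change of each gene, *Dio3*-/- minus *Dio3*+/+, on the log2(RPKM + 0.5) scale, with its 95% interval from limma, ordered by size and coloured by role. The 2 filled points, *Rrm2* and *E2f1*, had an adjusted P value below 0.05, and the dashed line is the median of all 14657 genes tested, 0.039.

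The intervals show how much difference these data can hold. The highest upper bound of a member was 0.46 (*Fen1*) and the lowest lower bound -0.29 (*Rfc3*), so that no interval reached a 1.5-fold difference, which is 0.58 on the log2 scale. By their means, 578 of the 14657 genes tested differed by more than 1.5-fold, and the share of all genes whose interval reached it was not counted. The interval lay wholly above 0 for 14 members and for none wholly below. Over all 91 transcripts of the 38 genes, 81 had a higher mean in *Dio3*-/- hearts. Of the 91, 3 were called, 2 of them of *E2f1*, where 703 of the 32703 transcripts tested were called. Every transcript was higher for 33 members and none was for *Pold1*, *Rfc3* and *Chaf1b*. How often a transcript, or every transcript of a gene, was higher over the whole table was not counted. *Pola1* and *Lig1* had transcripts in both directions.

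Promoter sequence was not itself used in the choice by role, although control by E2F, given above for most of these genes, goes with those roles. Of the 38 genes, 31 had a window in the RefSeq promoter table of mouse build GRCm38.p6, from 250 bases before to 50 bases after a transcription start, in 36 windows. An E2F element, searched as TTTCCCGC, TTTCGCGC, TTTGCCGC or TTTGGCGC on both strands, was found in 12 of these windows (33.3%) and in 2.26% of all 32851 windows. The 12 genes were *Cdc6*, *Cdt1*, *Gins3*, *Lig1*, *Mcm3*, *Mcm5*, *Mcm6*, *Mcm7*, *Pola1*, *Pold1*, *Rfc3* and *Uhrf1*. They include members with a high log2 fold change (*Cdt1*, 0.27) and those at or below 0.01 (*Lig1*, *Pold1* and *Rfc3*). A CCAAT box was found on either strand in 58.3% of member windows and 37.4% of all windows. The AGGTCA element, the core that thyroid hormone receptors and other nuclear receptors bind, was found in 13.9% of member windows and 16.3% of all windows, and its direct repeat with a spacer of 4 bases (DR4) in 0 of 36 and in 5 of 32851. Median GC content was 61.3% in member windows and 52.7% in all. The set of all windows was not limited to genes expressed in these hearts or to windows of like GC content. Such matches are a description of the letters in these windows and not evidence of binding.

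The promoters of 4 members are shown here 5′ to 3′ on the gene's strand, up to the transcription start or the first annotated exon, with E2F and CCAAT matches on either strand in capitals. *Rrm2* is shown as the member with the largest difference and *Rrm1* as the other subunit of its enzyme and among the most abundant members. *Mcm6* and *Mcm5*, picked after the matches were seen, hold the most E2F matches before the start.
Rrm2: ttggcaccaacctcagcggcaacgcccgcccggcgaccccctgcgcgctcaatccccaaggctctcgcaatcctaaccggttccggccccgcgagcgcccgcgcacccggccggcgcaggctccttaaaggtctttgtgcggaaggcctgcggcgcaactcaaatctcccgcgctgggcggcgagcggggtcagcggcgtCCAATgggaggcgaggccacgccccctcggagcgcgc
Rrm1: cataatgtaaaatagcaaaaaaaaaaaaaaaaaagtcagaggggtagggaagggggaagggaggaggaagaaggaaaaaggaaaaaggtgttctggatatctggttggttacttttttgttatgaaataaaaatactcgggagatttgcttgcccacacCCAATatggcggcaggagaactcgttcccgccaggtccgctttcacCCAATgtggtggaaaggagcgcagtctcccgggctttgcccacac
Mcm6: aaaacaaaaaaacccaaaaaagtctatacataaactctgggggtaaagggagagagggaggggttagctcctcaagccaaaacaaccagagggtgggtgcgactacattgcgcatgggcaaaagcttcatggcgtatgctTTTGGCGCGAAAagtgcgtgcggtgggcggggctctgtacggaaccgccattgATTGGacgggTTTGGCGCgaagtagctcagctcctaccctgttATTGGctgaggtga
Mcm5: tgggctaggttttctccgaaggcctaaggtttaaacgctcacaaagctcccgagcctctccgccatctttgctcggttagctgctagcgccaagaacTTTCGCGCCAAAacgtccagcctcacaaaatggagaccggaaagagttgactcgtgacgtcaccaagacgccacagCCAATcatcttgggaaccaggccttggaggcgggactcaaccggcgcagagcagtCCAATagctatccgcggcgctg
They lie at chr12:24708004-24708240 on the plus strand (*Rrm2*), chr7:102441445-102441694 on the plus strand (*Rrm1*), chr1:128359706-128359955 on the minus strand (*Mcm6*) and chr8:75109259-75109508 on the plus strand (*Mcm5*) of GRCm38.p6. The reductase promoters held CCAAT boxes, 1 in *Rrm2* and 2 in *Rrm1*, and none of the E2F forms searched. The *Mcm6* promoter held 3 E2F matches and the *Mcm5* promoter 2, and in each a match on the gene's strand overlapped another on the opposite strand, in the runs TTTGGCGCGAAA and TTTCGCGCCAAA. GC content was 72.6% in the *Rrm2* sequence and 46.0% in that of *Rrm1*. The window of *E2f1* lay within annotated exons and is not shown.

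The rest of the pathway was read from 6 further lists in the same test, with 113 genes tested of 114 listed. Of these, 95 (84.1%) had a higher mean in *Dio3*-/- hearts, and the median log2 fold change was 0.116. At an unadjusted P value under 0.05, 45 passed, all higher, and 3 were called. Over all genes tested, 63.3% had a higher mean, 15.2% passed unadjusted as higher and 2.29% were called. These shares stand beside each list below. The 14 genes of origin licensing and firing tested had a median of 0.108 with 13 higher and none called by limma (3 at an unadjusted P value under 0.05). They ran from *Cdc7*, the origin-firing kinase, at 8.40 and 8.39 RPKM, to *Gmnn*, the inhibitor of Cdt1, at 10.6 (CV 0.08) and 13.1 RPKM (CV 0.07; log2 fold change 0.29, SE 0.07, adjusted P = 0.0638). *Cdt1* and its inhibitor thus had the highest values of their respective roles, at 0.27 and 0.29, and neither passed the test.

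The other 17 replisome subunits had a median of 0.037, near that of all genes, with 12 higher, 3 at an unadjusted P value under 0.05 and none called. They ran from *Pold3*, a subunit of polymerase delta (14.4 against 13.7 RPKM, -0.07), to *Tipin* of the fork protection complex (15.1 against 17.6 RPKM, 0.22, adjusted P = 0.134). The 10 genes of replication-coupled chromatin also had a median of 0.037, with 8 higher, 1 at an unadjusted P value under 0.05 and none called, from the histone chaperone *Asf1a* (-0.02) to its S phase paralog *Asf1b* (0.17, adjusted P = 0.241).

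The 30 other genes of nucleotide supply had a median of 0.138 with 27 higher, 14 at an unadjusted P value under 0.05 and 2 called, both higher. Of all genes, 63.3% had a higher mean, 15.2% passed unadjusted as higher and 2.29% were called. *Ppat*, the enzyme of the committed step of purine synthesis, averaged 12.8 RPKM (CV 0.04) in wild-type and 15.7 RPKM (CV 0.07) in knockout hearts (log2 fold change 0.28, SE 0.06, adjusted P = 0.0463). *Slc29a1*, the nucleoside transporter Ent1, averaged 18.1 (CV 0.01) and 21.1 RPKM (CV 0.05; 0.22, SE 0.05, adjusted P = 0.0495). The highest value of the list was that of *Mthfd1*, which supplies carbon-carrying folates to purine and thymidylate synthesis, at 12.9 (CV 0.12) and 16.9 RPKM (CV 0.09; 0.38, SE 0.09, adjusted P = 0.0634), and the lowest that of *Adss*, an enzyme of AMP synthesis, at 22.8 and 21.2 RPKM (-0.10, adjusted P = 0.547). Neither call held without the filter or the trend, by Welch's test, after centring or with raised CVs, and that of *Slc29a1* was also lost with a pseudocount of 0.1 and with 1 row per gene.

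The 22 E2F, pocket protein and G1/S genes were spread most widely, with 15 higher, a median of 0.081, 6 at an unadjusted P value under 0.05 and none called. *Lin9*, a subunit of the MuvB complex, had the highest value (6.53 against 7.61 RPKM, 0.21, adjusted P = 0.106). *E2f2*, a paralog of *E2f1*, had the lowest, at 6.78 RPKM (CV 0.18) in wild-type and 5.23 RPKM (CV 0.31) in knockout hearts (-0.35, SE 0.19, adjusted P = 0.383). The 20 genes of mitosis all had a higher mean, with log2 fold changes of 0.10 (*Bub1b* and *Ube2c*) to 0.24 and a median of 0.16, where 63.3% of all genes had a higher mean, and 18 had an unadjusted P value under 0.05, where 15.2% of all genes did as higher. The gene called was *Nuf2*, a kinetochore subunit, at 17.2 (CV 0.01) and 20.4 RPKM (CV 0.06; 0.24, SE 0.05, adjusted P = 0.0449), and this call was lost without the filter or the trend, by Welch's test, after centring and with raised CVs. No test compared the lists with each other.

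**Figure D3:**
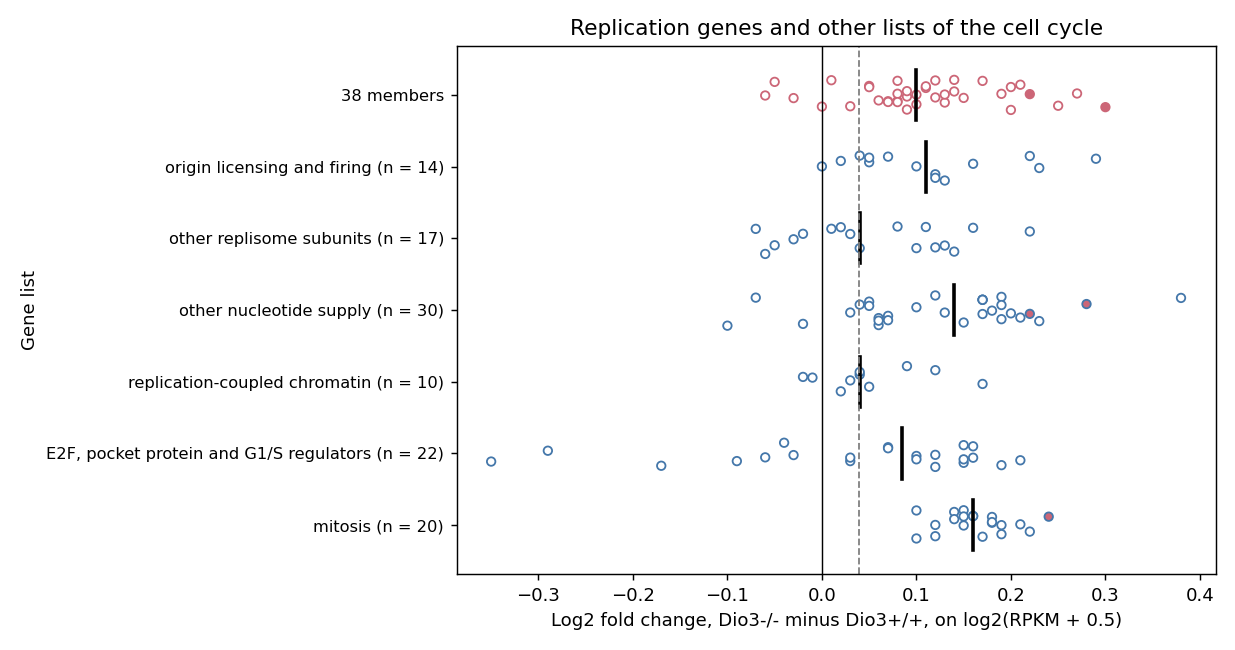
Log2 fold change, *Dio3*-/- minus *Dio3*+/+, of each gene of the 38 members and of 6 further lists, with a black bar at each list's median and a dashed line at the median of all genes tested (0.039). Filled points were called at an adjusted P value under 0.05, and all 20 mitosis genes sit to the right of 0 while the E2F and G1/S genes reach from -0.35 to 0.21.

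Markers of other cells moved with genotype in the same table, and their part in the results above was not tested. The tissue label held: all 8 cardiomyocyte markers were present (*Tnnt2*, cardiac troponin T, at 1212 and 1281 RPKM). All 8 had a higher mean in *Dio3*-/- hearts, with a median log2 fold change of 0.232 and 1 called, *Ryr2*, the calcium release channel, at 24.2 and 36.6 RPKM (0.59, adjusted P = 0.0231). The 7 red cell genes tested were all lower in *Dio3*-/- hearts, with a median of -1.471 and 1 called (*Hbb-bh1*, -1.51, adjusted P = 0.0468), and their summed level was 47117 and 16296 RPKM. RPKM values are shares of the mapped reads, of which globin reads are a part. The 10 liver genes were all higher with a median of 1.623, none called by limma (10 at an unadjusted P value under 0.05), on levels summing to 24.0 and 127 RPKM. Of these, *Fga*, *Fgb*, *Ttr* and *Ahsg* were under 1 RPKM in wild-type hearts and passed the filter only by their knockout mean, so their direction was fixed by it. The CVs of the liver genes were 0.18 to 1.41 among *Dio3*+/+ hearts and 0.68 to 1.26 among *Dio3*-/- hearts, so that their level differed widely from heart to heart in both genotypes. The members' CVs did not exceed 0.13 in either genotype. Medians were 0.103 for 7 endothelial, 0.158 for 5 epicardial, -0.241 for 6 fibroblast and cushion, -0.061 for 7 macrophage and 0.186 for 3 smooth muscle markers. In the same order, 7, 4, 2, 2 and 2 of them had a higher mean in *Dio3*-/- hearts. Of the markers in these lists, 1 was called, the macrophage gene *Lyz2*, at 13.3 and 18.8 RPKM (0.48, adjusted P = 0.0214). The CVs of the fibroblast and cushion markers had a median of 0.405 in wild-type and 0.045 in knockout hearts. *Dio3* itself averaged 0.35 RPKM (CV 1.23) in wild-type and 0.13 RPKM (CV 0.76) in knockout hearts, below the filter, a level too low to check the genotype labels.

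**Figure D4:**
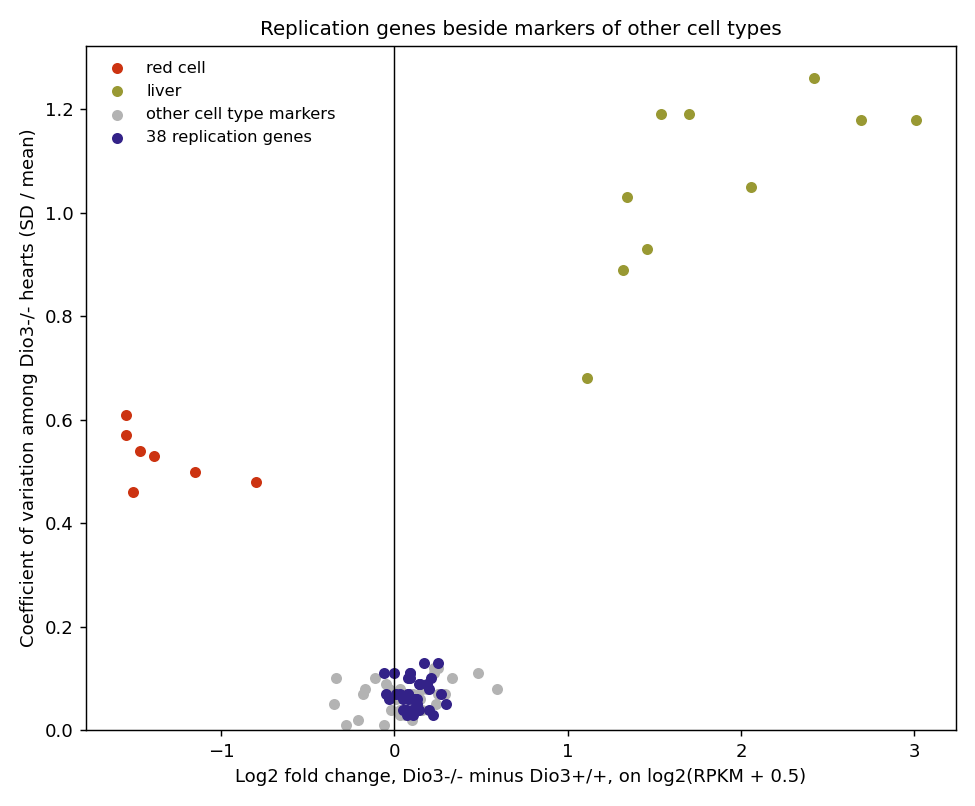
CV among the 4 *Dio3*-/- hearts against the log2 fold change, *Dio3*-/- minus *Dio3*+/+, for the 38 replication genes and the markers of cell types. The replication genes lie at CVs of 0.03 to 0.13, much like the markers of the other cell types (0.01 to 0.12). Red cell genes (lower, CVs of 0.46 to 0.61) and liver genes (higher, CVs of 0.68 to 1.26) lie apart.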

How the data were processed

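RNA of 8 fetal hearts, 4 per genotype and each from an individual mouse, was depleted of ribosomal RNA and sequenced by the study. The submitters' processing notes name FastQC and Novoalign (version 2.08), and the study's methods state that uniquely mapping reads were kept and that samples were scaled linearly to the smallest. The genome build is not given in the sources used here. The authors deposited a table of 51414 transcripts with 1 mean per genotype. These means are taken as RPKM because the methods filter in that unit and the deposited header names none. The coefficient of variation, the SD in ratio to that mean, was also deposited. Its remaining columns, the authors' fold change and q value, were not used. Single hearts and read totals are not part of the table analysed here, so depth and the precision it gives are unknown, and the designs were computed from summaries.

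Means were transformed as log2(RPKM + 0.5), with SDs approximated from the coefficient of variation by the delta method. Variances, with 6 residual degrees of freedom, were moderated by limma's empirical Bayes step (limma 3.58.1 in R 4.3.3), along a trend with mean level, at 3.52 prior degrees of freedom. P values (2-sided) received Benjamini-Hochberg adjustment across 32703 transcripts. The test was also run on simulated data with the same CV in both genotypes and independent transcripts. These data differ from that setting, so the run does not give the rate of false calls here. Each gene is given by its most abundant transcript. Named genes are all 38 members, and from each further list those called and those with the highest and lowest log2 fold change. *Dio3*, marker examples and promoters picked by their E2F matches were named besides. The members, lists and tests were chosen with earlier results of these data known. Promoter windows came from RefSeq, and exons from GENCODE. The rule for promoters took called members and the 3 most abundant, of which *E2f1* and *Pcna* were left out for exons within the window. Reads shared with pseudogene copies were not examined. Alternatives were other pseudocounts (0.1 and 1), no filter, a mean above 5 RPKM, no trend, 1 row per gene, Welch's test from the summaries, centring on the median log2 ratio, coefficients of variation raised by 0.005, leaving out those above 0.5, and the row with the lowest P value. Summaries used Python (3.11.15), numpy (2.4.6), pandas (2.3.3) and matplotlib (3.10.9).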

Additional observations from a re-analysis of the deposited data

How the results depend on the processing

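No paired analysis was possible because the table gives genotype means and no values of single hearts, and leaving out each heart was not run for the same reason. The count of called members was 2 with other pseudocounts, with 1 row per gene and with the row of lowest P value, and 3 (with *Cdt1*) above 5 RPKM or without wide coefficients of variation. It was 1 (*Rrm2*) without a filter and without the trend, where the adjusted P value of *E2f1* was 0.0597 and 0.0532. It was 0 by Welch's test, by limma after centring and by limma with raised coefficients of variation, with 9, 4 and 8 members at an unadjusted P value under 0.05. The adjusted P value was then 0.12, 0.062 and 0.0505 for *Rrm2*, and 0.0697, 0.0938 and 0.0734 for *E2f1*. The count over the further lists was 3, or 5 without wide coefficients of variation, 2 to 4 with other pseudocounts, rows or a mean above 5 RPKM, and 0 in the remaining settings: no filter, no trend, Welch's test, centring and raised coefficients of variation (45, 44, 38, 29 and 43 genes at an unadjusted P value under 0.05). The share of all genes at an unadjusted P value under 0.05 was counted in the main test only, so these unadjusted counts have no like share beside them. Over all genes the count of calls was 336, and it ranged from 27 by Welch's test to 495 without wide coefficients of variation. It was 180 after centring, 187 with raised coefficients and 197 without a filter. The share of all genes called, 2.29% in the main test, thus changed with the setting too. It was 3.76% above 5 RPKM, 3.48% without wide coefficients of variation, 1.71% without the trend and 0.794% without a filter. By Welch's test it was 0.184%, after centring 1.23% and with raised coefficients 1.28%. The members' median log2 fold change was 0.06 after centring and 0.09 to 0.11 elsewhere. Centring turned *Mcm4* (-0.003), *Prim2* (-0.04) and *Lig1* (-0.03), and the row of lowest P value turned *Lig1* (-0.02). Apart from the construction of each alternative, the cause of these shifts was not tested. With 4 hearts per genotype the median SE of a member was 0.07, and differences of its interval's median reach (0.16) or less could not be told from 0 in most members.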
